A study of Mus musculus with 11 samples.

Results

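Interferon-stimulated genes and genes of class I antigen presentation were followed in the anterior cingulate cortex (ACC), a frontal area of the mouse brain, by sequencing the RNA of whole tissue. Of 39 gene symbols listed for these functions, 38 were in the expression table of 14974 genes, and all 38 passed the filter of a mean of at least 0.1 FPKM over the libraries. Rnf213 was the symbol not found and was not analysed here. The symbols were listed with earlier results of these data known. FPKM counts the fragments of a gene per kilobase of its length and in relation to the depth of its library, so levels of different genes can be set side by side.

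The 6 Trained libraries (Trained 1, 2 and 3 from females, Trained 12, 13 and 14 from males) came from mice that had learned to press a lever for food under rising fixed ratios over 9 days. The 5 Untrained libraries (Untrained 5, 6 and 17 from females, Untrained 10 and 16 from males) came from mice that were food-restricted too, spent the same time in the chamber and received the food rewards without pressing. All mice were adult wild-type C57BL/6 animals, each library held the tissue of 1 mouse, and tissue was taken within 1 h of the last session. The authors removed a further untrained male for its low read number.

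Interferons are secreted proteins that cells release on sensing viral or misplaced nucleic acids. Their receptors activate JAK kinases and transcription factors, STAT2 and IRF9 among them, which bind interferon-stimulated response elements (ISRE) near the start of antiviral genes. Interferon gamma also acts through gamma-activated sites (GAS). In the class I pathway the immunoproteasome cuts proteins into peptides, the TAP transporter carries the peptides into the endoplasmic reticulum, and H2-K1 or H2-D1 together with beta 2-microglobulin presents them at the cell surface. In the brain, microglia, endothelium and other cells can express these genes at low levels without infection.

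The promoters are shown because the ISRE is the element that the interferon response is known to use. RefSeq promoters (300 bases, with 250 before and 50 after the start site, build GRCm38.p6) were found for 32 of the 38 genes and not for Ifi27, Rtp4, Parp9, Parp14, Tap2 or Usp18. The ISRE letters, GAAA then any 2 bases then GAAA, searched on both strands, were present for 15 of these 32 genes (46.9%), against 3.99% of all 27025 genes with a RefSeq promoter and 3.44% of all 32851 promoters. The letters TTCNNNGAA, which read the same on both strands and stand for the GAS, were present for 8 of the 32 (25%), against 9.55% of all genes and 8.30% of all promoters. The 160 bases before the start site are printed for 4 genes that stood highest in Untrained 16, the library with the most of these transcripts, among those whose window holds the ISRE letters and overlaps no annotated exon. H2-K1 is shown as the class I gene with such an exon-free window. Capitals mark the ISRE letters on either strand, and overlapping matches run together. Each sequence reads 5′ to 3′ along the strand of its gene, up to the base before the start site.
Isg15 (chr4:156200819-156200978, minus strand): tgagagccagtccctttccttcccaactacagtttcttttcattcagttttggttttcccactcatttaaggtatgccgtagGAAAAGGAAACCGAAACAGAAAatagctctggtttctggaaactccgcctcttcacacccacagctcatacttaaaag
Bst2 (chr8:71537473-71537632, minus strand): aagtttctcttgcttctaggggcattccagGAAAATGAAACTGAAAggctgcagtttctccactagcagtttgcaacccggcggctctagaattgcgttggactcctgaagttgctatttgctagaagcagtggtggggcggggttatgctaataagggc
Trim30d (chr7:104507850-104508009, minus strand): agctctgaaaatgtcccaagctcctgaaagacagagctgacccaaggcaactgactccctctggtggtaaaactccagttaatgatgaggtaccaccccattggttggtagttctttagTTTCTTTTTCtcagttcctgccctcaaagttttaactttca
Ifit3 (chr19:34583369-34583528, plus strand): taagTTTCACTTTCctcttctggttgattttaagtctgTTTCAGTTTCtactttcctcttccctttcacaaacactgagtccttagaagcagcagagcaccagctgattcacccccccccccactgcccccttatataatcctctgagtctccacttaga
H2-K1 (chr17:34000348-34000507, minus strand): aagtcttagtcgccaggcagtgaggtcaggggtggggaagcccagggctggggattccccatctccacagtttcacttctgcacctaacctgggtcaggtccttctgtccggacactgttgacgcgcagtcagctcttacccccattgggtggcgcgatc
Matches began at positions -78, -72 and -66 from the start site of Isg15, at -130 and -124 in Bst2, at -41 in Trim30d, and at -156 and -122 in Ifit3. The printed H2-K1 window held no match to these exact letters, which does not show that it lacks an ISRE of other letters. The 15 genes with a match had a median ratio of Untrained 16 to the other libraries of 2.57 and the 17 without had 1.66, with Oasl2 and Irf7, the genes of highest ratio, among those without. A match is a description of these letters and not a measured binding site.

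The FPKM of low genes were taken to move in steps of single fragments. The steps gave an estimated 17.8 to 27.2 M fragments in the Trained and 14.2 to 26.1 M in the Untrained libraries. Only 42.2% to 57.8% of the low values were within 0.1 of a whole fragment count, and the depth is therefore approximate. Fragment numbers given for single genes rest on this depth and are approximate too. The 6 neuron markers summed to 3273 to 3675 FPKM in the Trained libraries and to 3307 to 4222 FPKM in the Untrained libraries. The choroid plexus markers summed to 171 FPKM in Untrained 10, against 1.35 to 5.82 FPKM in the Trained libraries. In bulk tissue, fewer cells of a type and less RNA per cell cannot be told apart.

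The library Untrained 16, from an untrained male, stood above the other 10 in most of these genes. It held the highest of the 11 values in 33 of 38 genes, against 9.78% of all 14936 genes tested. Trained 1, 2, 3 and 12 and Untrained 17 were each highest in 1 gene, and the other 5 libraries in none. Divided by the median of the other 10 libraries, the level in Untrained 16 had a median ratio of 1.77 over the 38 genes, against 1.00 over all genes. The ratio was at least 1.5 in 28 of the 38 genes (3.64% of all genes), at least 2 in 18 (0.73% of all genes) and at least 3 in 10 (0.174% of all genes). No other library reached 2 times the median of its 10 others in any of the 38 genes, and the median ratios of those libraries ran from 0.861 in Trained 14 to 1.06 in Untrained 6. Among the 5 Untrained libraries alone, the gap from Untrained 16 down to the next was over 0.71 of their range in 15 of the 38 genes (0.582% of all genes). These ratios and gaps come from 1 mouse and are given with no test. The 38 genes were listed with the high levels of this library known, so the counts and shares only describe it.

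**Figure D1:**
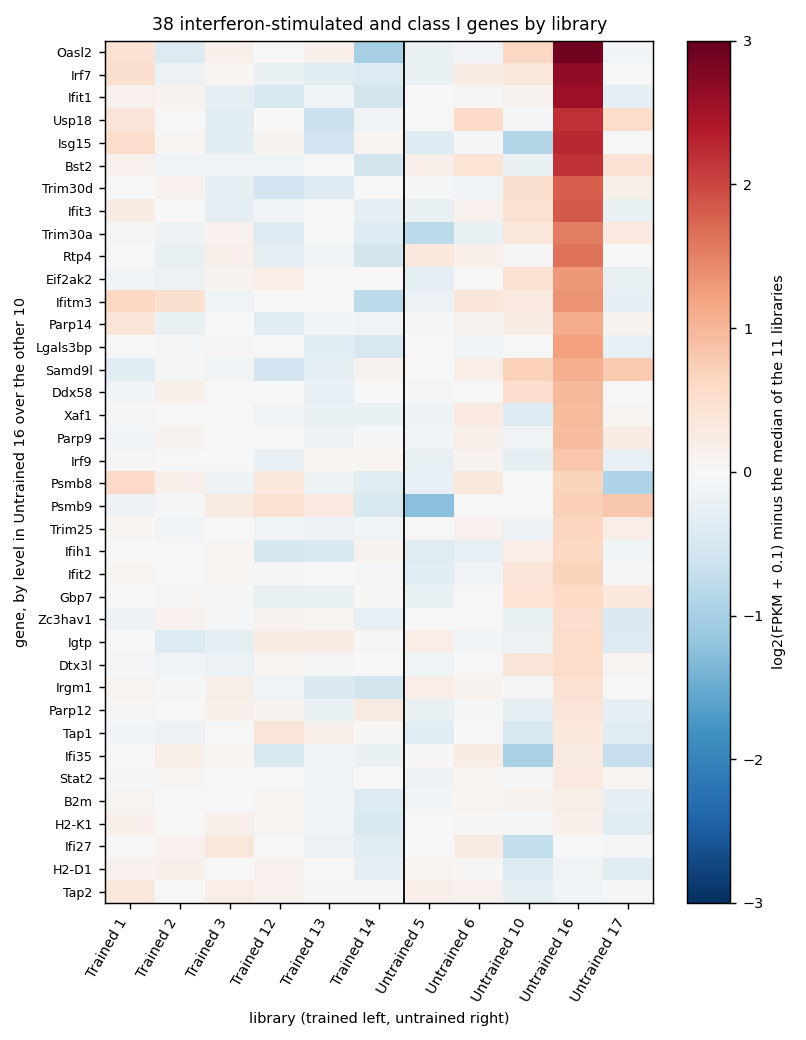
Level of the 38 genes (vertical axis, ordered by the ratio of Untrained 16 to the other 10 libraries) in each library (horizontal axis, Trained left and Untrained right), as log2(FPKM + 0.1) minus the median of the 11 libraries. The Untrained 16 column is the highest of the 11 in 33 genes, and in none of the 5 others, which are Psmb9, Tap1, Ifi27, H2-D1 and Tap2.

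The genes with the highest ratios were spread over the functions of the interferon response. Oasl2, an oligoadenylate synthetase-like protein, led at 8.84, and Irf7, the transcription factor that amplifies interferon production, followed at 7.41. Ranked over all genes with a value in the other libraries, 6 of the 10 highest ratios, 14 of the 50 highest and 18 of the 100 highest belonged to the 38 genes. The 31 genes outside the class I group had a median ratio of 2.09 and were highest in Untrained 16 in 30 cases. The 7 class I genes had a median ratio of 1.13, were highest in Untrained 16 in 3 cases and had no ratio of at least 2. Across the 38 genes a higher ratio went with a lower level in the other libraries (Spearman rho -0.56, against -0.20 over all genes). The level in the other libraries is also the divisor of the ratio, which by itself makes rho more negative. The genes were ranked by this ratio and share libraries and depth, so rho is a description. They were also listed with the high levels of Untrained 16 known, so their places among the highest ratios are no test.

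Among the sensors of foreign RNA, Oasl2 (chr5:114896936-114912234, plus strand) was at 0.251, 0.636 and 0.846 FPKM as the lowest, median and highest Trained library. In the Untrained libraries Oasl2 was at 5.11 FPKM in Untrained 16 and at 0.512, 0.547, 0.969 and 0.559 FPKM in Untrained 5, 6, 10 and 17. Untrained 16 alone lay far above the rest, and the other Untrained libraries lay among or just above the Trained ones. The Oasl2 value corresponds to about 607 fragments in Untrained 16, against 28 to 115 in the other libraries. Eif2ak2, the kinase PKR that stops translation on binding double-stranded RNA, was at 1.15, 1.31 and 1.499 FPKM as the lowest, median and highest Trained library. In Untrained 16 Eif2ak2 was at 3.35 FPKM, and in Untrained 5, 6, 10 and 17 it was at 1.07, 1.30, 1.84 and 1.10 FPKM. Untrained 16 was highest and Untrained 10 second, with the other Untrained libraries within or just below the Trained range. Ddx58 (RIG-I), Ifih1 (MDA5) and Zc3hav1 (the antiviral protein ZAP) had ratios of 2.09, 1.65 and 1.53, all with Untrained 16 highest.

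Of the transcription factors, Irf7 (chr7:141262706-141266481, minus strand) was at 0.575, 0.688 and 1.14 FPKM as the lowest, median and highest Trained library. It was at 5.50 FPKM in Untrained 16 and at 0.671, 0.943, 1.03 and 0.792 FPKM in Untrained 5, 6, 10 and 17. The 4 other Untrained libraries lay inside the Trained range and Untrained 16 far above it. Irf7 overlaps Phrf1 on the opposite strand. Irf9, the DNA-binding partner of STAT2, had a ratio of 1.82 and Stat2 a ratio of 1.22. The median of the Trained libraries was 3.76 FPKM for Irf9 and 6.44 FPKM for Stat2, against 0.688 FPKM for Irf7.

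The ISG15 system attaches the ubiquitin-like protein ISG15 to other proteins and removes it again. Isg15 itself (chr4:156199424-156200818, minus strand) was at 0.718, 1.18 and 1.66 FPKM as the lowest, median and highest Trained library. It was at 5.72 FPKM in Untrained 16 and at 0.825, 1.06, 0.564 and 1.11 FPKM in Untrained 5, 6, 10 and 17. Apart from Untrained 16, the Untrained libraries lay inside or below the Trained range. The Isg15 values rest on few fragments, about 81 in Untrained 16 and 8 to 26 in the other libraries. Usp18, the protease that removes ISG15 and restrains the interferon receptor, was at 0.204, 0.361 and 0.518 FPKM as the lowest, median and highest Trained library. It was at 2.08 FPKM in Untrained 16 and at 0.378, 0.602, 0.361 and 0.594 FPKM in Untrained 5, 6, 10 and 17. Untrained 16 was highest and Untrained 6 and 17 lay just above the Trained range. Trim25, a ubiquitin ligase that activates RIG-I, had a ratio of 1.66.

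**Figure D2:**
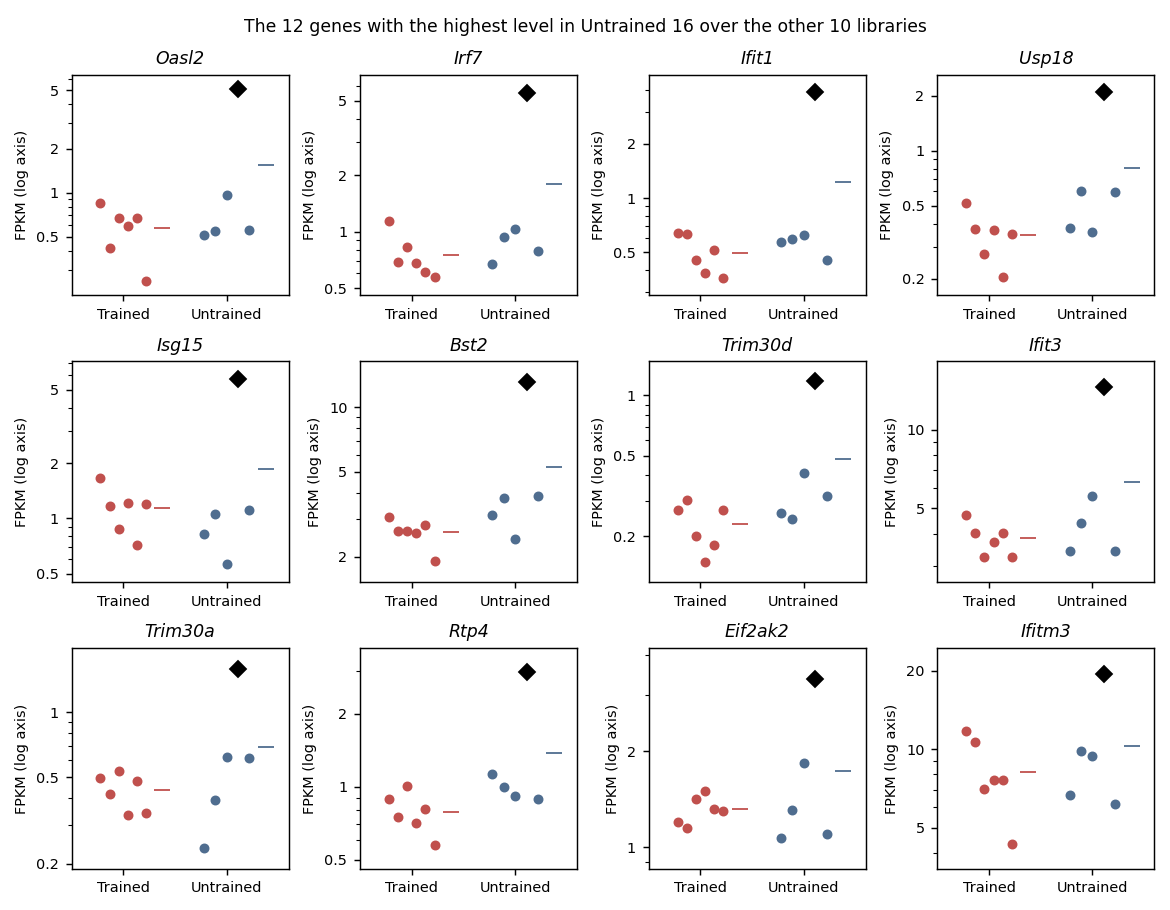
FPKM (vertical log axes) in the Trained libraries (red, left) and the Untrained libraries (blue, right) for the 12 genes with the highest ratio, 1 panel per gene. Circles are libraries, the black diamond is Untrained 16 and short bars are group means. Untrained 16 lies above all other points in each panel, for example at 5.11 FPKM for Oasl2.

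The antiviral effectors were the largest group, with 13 genes, a median ratio of 2.57 and Untrained 16 highest in 12. Ifit1, which binds viral RNA with foreign cap structures, was at 0.363, 0.483 and 0.640 FPKM as the lowest, median and highest Trained library. It was at 3.88 FPKM in Untrained 16 and at 0.575, 0.592, 0.627 and 0.452 FPKM in Untrained 5, 6, 10 and 17, all 4 inside the Trained range. Ifit3, which works in a complex with IFIT1 in human cells, was at 3.27, 3.88 and 4.71 FPKM as the lowest, median and highest Trained library. It was at 14.6 FPKM in Untrained 16 and at 3.44, 4.39, 5.55 and 3.44 FPKM in Untrained 5, 6, 10 and 17. Untrained 16 was highest and Untrained 10 came next, above every Trained library. Reads of Ifit3 and its near copy Ifit3b may have been split by the counting.

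Bst2, or tetherin, which holds budding virus at the cell surface, was at 1.91, 2.65 and 3.09 FPKM as the lowest, median and highest Trained library. It was at 13.1 FPKM in Untrained 16 and at 3.14, 3.78, 2.44 and 3.84 FPKM in Untrained 5, 6, 10 and 17. Here 4 of the 5 Untrained libraries lay above all Trained ones, and Untrained 10 lay among them. Ifitm3, a membrane protein that blocks virus entry, was at 4.34, 7.60 and 11.8 FPKM as the lowest, median and highest Trained library. It was at 19.5 FPKM in Untrained 16 and at 6.67, 9.82, 9.38 and 6.16 FPKM in Untrained 5, 6, 10 and 17. Without Untrained 16 the Untrained values of Ifitm3 lay inside the Trained range.

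Trim30d and Trim30a, neighbouring members of the tripartite motif family whose reads may be shared, gave the next high ratios. Trim30d was at 0.148, 0.235 and 0.304 FPKM as the lowest, median and highest Trained library. It was at 1.18 FPKM in Untrained 16 and at 0.261, 0.243, 0.412 and 0.317 FPKM in Untrained 5, 6, 10 and 17. Untrained 10, 16 and 17 lay above the Trained range for Trim30d. Trim30a was at 0.336, 0.450 and 0.538 FPKM as the lowest, median and highest Trained library. It was at 1.58 FPKM in Untrained 16 and at 0.237, 0.394, 0.623 and 0.613 FPKM in Untrained 5, 6, 10 and 17. For Trim30a, Untrained 10, 16 and 17 lay above the Trained range, Untrained 6 inside it and Untrained 5 below it. Rtp4, a receptor transporter protein that is induced by interferon, was at 0.573, 0.777 and 1.01 FPKM as the lowest, median and highest Trained library. It was at 2.98 FPKM in Untrained 16 and at 1.13, 0.993, 0.916 and 0.891 FPKM in Untrained 5, 6, 10 and 17. Untrained 16 and Untrained 5 lay above the Trained range of Rtp4.

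The other effectors had lower ratios. Samd9l, an antiviral protein that also restrains growth of blood cells, was at 0.419, 0.569 and 0.729 FPKM as the lowest, median and highest Trained library. It was at 1.53 FPKM in Untrained 16 and at 0.669, 0.787, 1.14 and 1.24 FPKM in Untrained 5, 6, 10 and 17. All Untrained libraries but Untrained 5 lay above the Trained range. Lgals3bp, a secreted galectin-binding glycoprotein, had a ratio of 2.40, Xaf1, which promotes cell death, 2.07, Ifit2 1.63 and Ifi35 1.26. Ifi27 was at 10.2, 13 and 16.5 FPKM as the lowest, median and highest Trained library. It was at 13.1 FPKM in Untrained 16 and at 13, 15.4, 7.80 and 12.4 FPKM in Untrained 5, 6, 10 and 17. Ifi27 was the only effector of the 13 in which Untrained 16 was not highest.

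The PARP and DELTEX group and the interferon-inducible GTPases moved less in Untrained 16. Parp14 and Parp9, of the ADP-ribosyltransferase family, had ratios of 2.45 and 2.04, Dtx3l, the ubiquitin ligase that pairs with PARP9, 1.51 and Parp12 1.34. Gbp7, Igtp and Irgm1, GTPases that act against intracellular pathogens in mice, had ratios of 1.57, 1.53 and 1.41. Untrained 16 was the highest library in all 7 of these genes. Parp9 and Dtx3l lie on opposite strands and overlap, and Igtp overlaps Irgm2 on its own strand.

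The class I genes had ratios between 0.893 and 1.72. Psmb8, a catalytic subunit of the immunoproteasome, was at 1.24, 1.62 and 2.45 FPKM as the lowest, median and highest Trained library. It was at 2.63 FPKM in Untrained 16 and at 1.35, 2.02, 1.61 and 0.802 FPKM in Untrained 5, 6, 10 and 17. Psmb9, another immunoproteasome subunit, was at 0.559, 0.881 and 1.13 FPKM as the lowest, median and highest Trained library. In both genes the Untrained libraries spanned the Trained range, since Psmb9 was at 1.37 FPKM in Untrained 16 and at 0.276, 0.804, 0.794 and 1.48 FPKM in Untrained 5, 6, 10 and 17.

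The transporter subunit Tap1, whose gene overlaps Psmb9 on the opposite strand, was at 0.637, 0.755 and 0.996 FPKM as the lowest, median and highest Trained library. It was at 0.947 FPKM in Untrained 16 and at 0.574, 0.736, 0.506 and 0.570 FPKM in Untrained 5, 6, 10 and 17. Untrained 5, 10 and 17 lay below all Trained libraries and Untrained 16 near their top. Its partner Tap2 was at 2.71, 2.99 and 3.62 FPKM as the lowest, median and highest Trained library. Tap2 was at 2.67 FPKM in Untrained 16 and at 3.15, 3.14, 2.31 and 2.70 FPKM in Untrained 5, 6, 10 and 17. Untrained 16 was near the low end for Tap2.

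B2m, encoding beta 2-microglobulin, had the highest level of the 38 genes in FPKM, with 53.5, 71.0 and 75.2 FPKM as the lowest, median and highest Trained library. It was at 80.5 FPKM in Untrained 16 and at 66.9, 75.5, 76.2 and 59.2 FPKM in Untrained 5, 6, 10 and 17. H2-K1 was at 8.99, 12.6 and 13.8 FPKM as the lowest, median and highest Trained library. The groups overlapped in both, since H2-K1 was at 13.8 FPKM in Untrained 16 and at 12.2, 12.6, 11.8 and 9.54 FPKM in Untrained 5, 6, 10 and 17. H2-D1 was at 4.34, 5.65 and 6.03 FPKM as the lowest, median and highest Trained library. It was at 4.98 FPKM in Untrained 16 and at 5.67, 5.49, 3.99 and 4.32 FPKM in Untrained 5, 6, 10 and 17. Reads of H2-K1 and H2-D1 may be shared between these similar genes, and Untrained 16 was inside the range of the others for H2-D1.

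**Figure D3:**
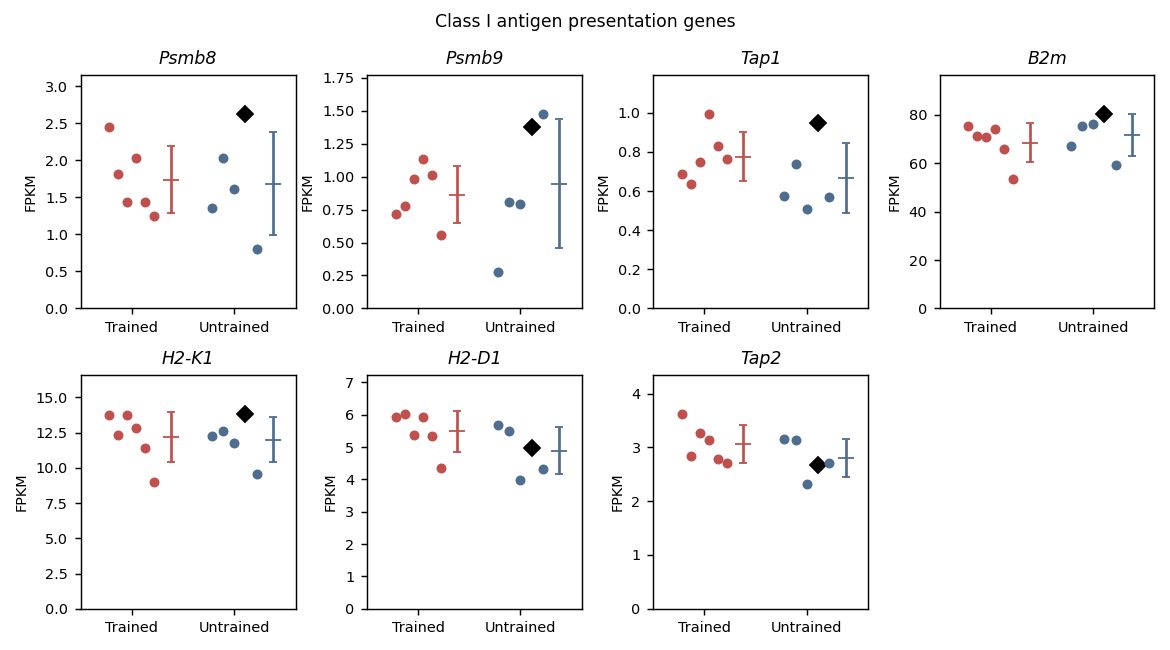
FPKM (vertical axes from 0) of the 7 class I antigen presentation genes in the Trained libraries (red, left) and the Untrained libraries (blue, right), with group means and SD as bars (n = 6 and 5). The black diamond, Untrained 16, lies above the others for Psmb8, B2m and H2-K1, and inside the range of the others for Psmb9, Tap1, H2-D1 and Tap2.

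Trained and Untrained mice were then compared over all 11 libraries with limma. Means were lower in Trained mice in 28 of the 38 genes, against 50.9% of all genes, and the median log2 difference was -0.22, against -0.003 over all genes. At the thresholds of the study, an unadjusted p under 0.01 and a change of at least 1.5-fold, 1 gene fell in Trained mice (0.134% of all genes) and none rose (0.147% of all genes). This gene was Samd9l, with a log2 difference of -0.77 (SE 0.19, unadjusted p = 0.0015, limma adjusted p = 0.485). At an unadjusted p under 0.05, 5 genes were lower in Trained mice (4.2% of all genes) and none higher (4.13% of all genes). Beside Samd9l these were Usp18 at -0.77, Bst2 at -0.71, Trim30d at -0.65 and Rtp4 at -0.60 on the log2 scale. No gene of the 14936 had a limma adjusted p under 0.05, and the lowest was 0.334, while 1245 genes had an unadjusted p under 0.05. No gene of the 38 had groups without overlap (0.388% of all genes had all Trained below all Untrained libraries, and 0.375% all above).

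Without Untrained 16, the differences of Oasl2, Irf7 and Ifit1 became smaller and that of Isg15 changed sign. Oasl2 moved to -0.17 without Untrained 16, against -0.74 with it, Irf7 to -0.18 against -0.69, Ifit1 to -0.16 against -0.68 and Isg15 to 0.32 against -0.20, all as log2 differences of Trained from Untrained mice. The median over the 38 genes was then -0.02, against -0.001 over all genes, and 23 means were lower in Trained mice (50.3% of all genes). The differences of 5 genes changed sign, and the median size of the shift was 0.17. The standard error was smaller without Untrained 16 in 30 of the 38 genes, with a median of 0.15 against 0.19 with it. Untrained 16 was left out with its high levels known, which by itself lowers the spread of the Untrained libraries.

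In this comparison of 6 with 4 libraries, Samd9l again passed the thresholds of the study, at a log2 difference of -0.64 (SE 0.18, unadjusted p = 0.0046, limma adjusted p = 0.710). It was the only gene of the 38 that fell (0.107% of all genes), and none rose (0.134% of all genes). Samd9l lost this call when Trained 1, Trained 12, Untrained 10 or Untrained 17 was left out as well, with log2 differences of -0.61, -0.56, -0.55 and -0.51. At an unadjusted p under 0.05, 1 gene was lower in Trained mice (3.27% of all genes) and 2 were higher (3.58% of all genes). The higher ones were Parp12, at 0.26 on the log2 scale (limma unadjusted p = 0.029), and Tap1, at 0.33 (unadjusted p = 0.039). None of the 38 was higher at this p when Trained 3, Trained 12, Untrained 5, Untrained 10 or Untrained 17 was left out as well (398 to 659 higher over all genes). With each of the other libraries left out, 1 to 3 were higher (372 to 874 over all genes). The 95% confidence interval of the difference lay within 1.5-fold in either direction for 27 of the 38 genes and within 2-fold for 37, against 15 and 27 with Untrained 16. Leaving out a library known to be high by itself narrows such intervals. No gene of the 38 had groups without overlap here either (0.603% of all genes had all Trained below, and 0.69% all above).

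**Figure D4:**
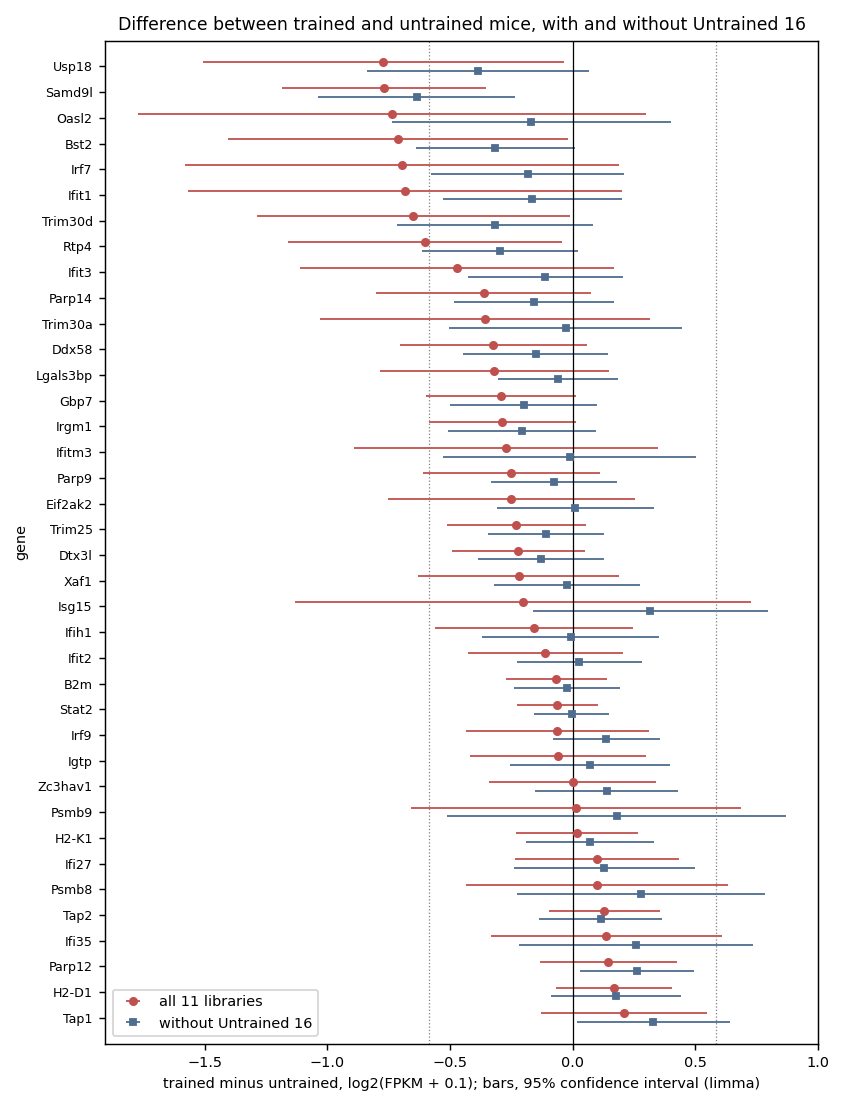
Difference of Trained from Untrained mice in log2(FPKM + 0.1) (horizontal axis) for each of the 38 genes (vertical axis), over all 11 libraries (red circles) and without Untrained 16 (blue squares). Bars are 95% confidence intervals from limma, and dotted lines mark 1.5-fold. Leaving out Untrained 16 brings Oasl2 to -0.17, against -0.74 with it, and shortens most intervals.

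Since Untrained 16 was 1 of 2 untrained males, the sexes were also compared apart. In females (3 Trained and 3 Untrained, with no Untrained 16) no gene of the 38 passed the thresholds of the study (0.154% of all genes fell and 0.174% rose), 13 means were lower in Trained mice (50.4% of all genes) and the median log2 difference was 0.11. At an unadjusted p under 0.05 in females, Samd9l (-0.51) and Bst2 (-0.35) were lower in Trained mice (4.82% of all genes) and none was higher (5.01% of all genes). In males (3 Trained and 2 Untrained) 8 genes fell in Trained mice past the same thresholds (0.281% of all genes) and none rose (0.395% of all genes), with log2 differences such as those of Oasl2 (-2.04), Irf7 (-1.81), Ifit3 (-1.28) and Samd9l (-1.14), and 33 means were lower (51.8% of all genes). The median log2 difference in males was -0.56. Untrained 16 was picked with its high levels in these genes known, so the calls in males are a description and no test. With Untrained 10 as the only untrained male, and its spread taken to be that of the trained males, none passed (1.18% of all genes fell and 2.87% rose) and the median was -0.23.

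As an interaction of training and sex over the 11 libraries, 8 genes had a higher difference in females than in males past the same thresholds (0.268% of all genes), none had a lower one (0.234% of all genes), and none had an adjusted p under 0.05 in limma. At an unadjusted p under 0.05 the interaction was positive in 16 genes (1.96% of all genes) and negative in none (2.15% of all genes). These fits hold Untrained 16, picked with its high levels known, so their counts are no test of a training effect that differs by sex. Ifih1 and Ifit2 were higher in all Trained than in all Untrained females and lower in all Trained than in all Untrained males (0.315% of all genes). Without Untrained 16 only Ifit2 had a higher difference in females past the thresholds (1.41% of all genes) and none a lower one (2.62% of all genes), in a fit where Untrained 10 was the only untrained male. By library number, numbers 1 to 6 (all female) gave no gene past the thresholds (0.087% of all genes fell and 0.121% rose) and a median log2 difference of 0.04. Numbers 10 to 17 gave 1 gene that fell, Samd9l (0.268% of all genes), none that rose (0.315% of all genes) and a median of -0.43. Without Untrained 16 these numbers again gave Samd9l (0.348% of all genes fell and 0.703% rose), with a median of -0.17. Between females and males, with training in the model, 3 of the 38 genes were lower in females over the 11 libraries at an unadjusted p under 0.05 (12.6% of all genes) and 2 were higher (9.71% of all genes), with a median log2 difference of -0.15. Without Untrained 16 the balance turned, with 1 lower (11.7% of all genes), 6 higher (10% of all genes) and a median of 0.08. Sex, library number and the position of Untrained 16 overlap in this design, and their parts cannot be told apart.

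The other 10 libraries gave the basal spread of these genes. The coefficient of variation was between 5.20% and 38.3% across the 38 genes, with a median of 17.5%. Over the 703 pairs of genes, the median Pearson correlation was 0.11 across these 10 libraries and 0.55 with Untrained 16 included, as a description of libraries that share depth and source. Untrained 16 was singled out as high in most of these genes, and including such a library by itself raises the correlations. Untrained 10 was the highest of the 10 in 11 genes (22.2% of all genes), among them Oasl2, Ifit3, Ifih1 and Ifit2. Untrained 10 was also the library with the high choroid plexus markers, and the part of that tissue in these values was not tested.

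Genes outside the 38 were grouped by their place in the pathway. Of 16 listed interferon and receptor genes only 5 receptor subunits were tested, with ratios of Untrained 16 to the others between 0.92 and 1.06, and the 11 others, among them Ifnb1 and Ifng, were not analysed here. Of 9 JAK-STAT genes, the highest ratios were those of Ptpn2 (1.30), a phosphatase acting on JAK kinases, Jak2 (1.24), a kinase of the interferon gamma receptor, and Socs1 (1.24), an inhibitor of JAK kinases. Among 15 sensor genes, Dhx58 (LGP2) had a ratio of 2.51, Tlr7 of 1.94 and Mb21d1 (cGAS) of 1.47. Of 55 other interferon-stimulated genes, 31 were highest in Untrained 16 and 16 had a ratio of at least 2, with Mx2 (5.0), Tgtp1 (4.80) and Gbp6 (4.2) leading. Over all genes with a median of at least 0.5 FPKM in the other 10 libraries, genes outside the 38 with high ratios were Angptl4 (4.38), Gbp3 (3.84), Ifit3b (3.43), A330076H08Rik (2.68), Grin2b (2.52), 4930480K23Rik (2.51), D130040H23Rik (2.503), D930015M05Rik (2.503) and Igsf6 (2.49). Gbp3 and Ifit3b are themselves interferon-stimulated. Angptl4, a secreted regulator of lipoprotein lipase, held 3.38 FPKM in Untrained 16, inside the 0.371 to 3.65 FPKM of the other 10 libraries. A330076H08Rik (3.07 FPKM, others up to 4.32) and 4930480K23Rik (2.01 FPKM, others up to 2.24) lay inside the range of the others too. Grin2b (26.45 FPKM, others up to 23.91) and D930015M05Rik (2.13 FPKM, others up to 2.04) lay just above it. None of these pathway lists held a gene past the thresholds of the study in Trained against Untrained mice, with or without Untrained 16.

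**Figure D5:**
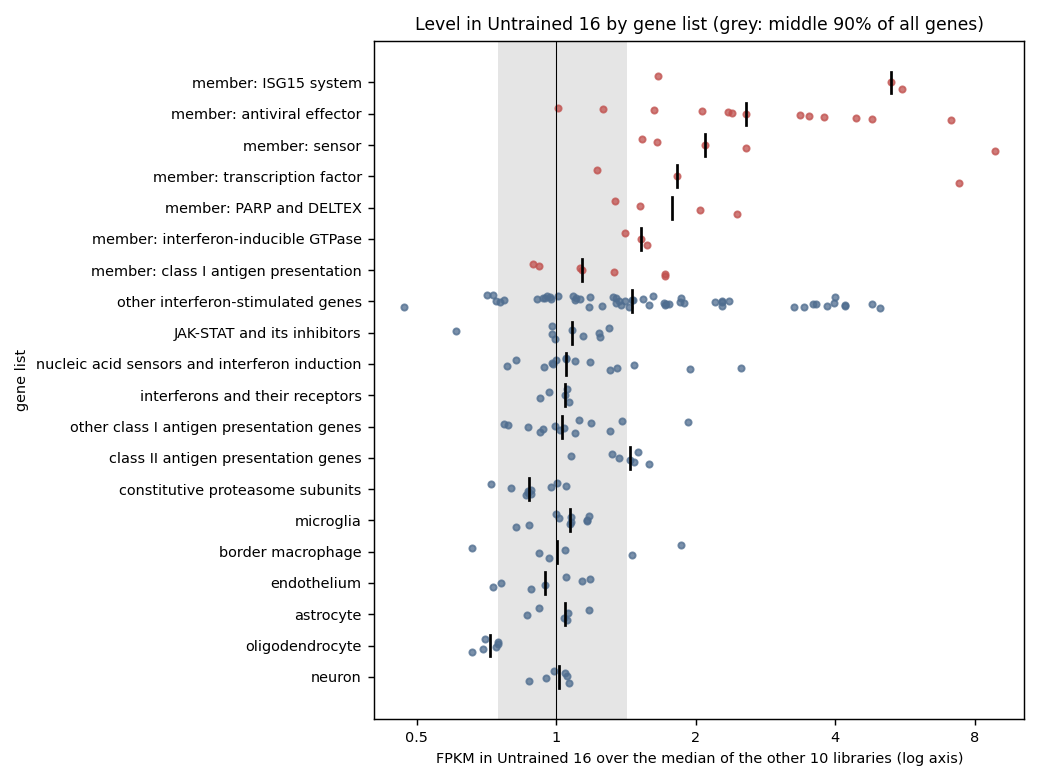
FPKM in Untrained 16 over the median of the other 10 libraries (horizontal log axis) for each gene, by list (vertical axis). Red points are the 38 genes by role, blue points other lists, black bars list medians, and the grey band the middle 90% of all genes, 0.750 to 1.42. The points of the 38 genes reach 8.84, and the medians of the cell type markers shown lie between 0.721 and 1.07.

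Markers of cells that could carry these genes were set beside the result. The 10 microglia markers summed to 221 FPKM in Untrained 16, against 179 to 219 FPKM in the Trained and 182 to 206 FPKM in the other Untrained libraries, with single ratios of 0.82 to 1.18. The 6 border macrophage markers summed to 4.30 FPKM in Untrained 16, against 1.98 to 4.95 FPKM in the Trained and 4.33 to 6.03 FPKM in the other Untrained libraries. Among these, Mrc1, Lyve1 and Ms4a6c fell in Trained mice past the thresholds of the study (0.134% of all genes). Mrc1 and Lyve1 did so without Untrained 16 as well (0.107% of all genes). None of them had a limma adjusted p under 0.05. Of 10 T and NK cell markers only Cd4 passed the filter, at 0.204 FPKM in Untrained 16. The endothelial markers summed to 55.8 FPKM in Untrained 16, against 57.4 to 63.5 FPKM in the Trained and 51.9 to 66.2 FPKM in the other Untrained libraries. The part of any cell type in the levels of the 38 genes was not tested.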

How the data were processed

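RNA was measured in the ACC of 6 trained and 5 untrained mice. The authors used a stranded mRNA kit, Trimmomatic 0.38, Bowtie2 2.3.5.1 on mm10 and featureCounts of Subread 1.6.3, and deposited FPKM values for 14974 genes. Not given in the sources used here were the conversion of counts to FPKM, the annotation and the strand setting. A second deposited table holds the authors' log2 fold changes and p-values from edgeR 3.30.3 and was not used.

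From the deposited FPKM, log2(FPKM + 0.1) was compared for the 14936 genes that averaged 0.1 FPKM or more with limma 3.58.1 in R 4.3.3 (trended eBayes), with Benjamini-Hochberg adjustment over all genes. Fold changes are on that log2 scale, which understates changes of low genes. Ratios were made with pandas 2.3.3 and numpy 2.4.6 in Python 3.11.15, and figures with matplotlib 3.10.9. The fit was tested on simulated data. Depth was estimated from steps between low FPKM and exon lengths of GENCODE M21, which also gave coordinates (GRCm38) and held 96.0% of the names. A spreadsheet had turned 23 names into numbers, and these genes stayed unnamed.

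The members and lists were chosen with earlier results of these data known. All values are given for the 12 genes of highest ratio, those past the thresholds, the class I genes and the 3 of lowest ratio. Other genes named are the 3 of highest ratio in a list, those among the 10 of highest ratio outside the members and list genes past the thresholds. A gene result that the rule would name is not reported here. The few remaining ones were chosen after their values were seen. Alternatives were other pseudocounts (0.01 and 1), filters, scalings, covariates, array weights and each library left out. Leaving out Untrained 16 with Untrained 10 or with Untrained 17 was chosen after seeing the data.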

Additional observations from a re-analysis of the deposited data

Results flagged for a closer look

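Among the 5 Untrained libraries, Untrained 16 lay far above the nearest other library in 15 of the 38 genes, against 0.582% of all genes. The 38 genes were listed and ranked with the levels of this library known, so these gaps are a description and no test of it. The gap to that library, as a share of the range of the group, was 0.949 for Ifit1, 0.925 for Irf7, 0.900 for Oasl2, 0.894 for Isg15, 0.884 for Rtp4 and also 0.884 for Lgals3bp. It was 0.869 for Bst2, 0.860 for Usp18, 0.828 for Parp14, 0.820 for Trim30d, 0.811 for Ifit3, 0.743 for Irf9, 0.738 for Parp9, 0.726 for Ifitm3 and 0.713 for Trim30a. Genes were taken up where the share was above 0.710, Dixon's 95% value for 5 samples. Chance marks about 1 in 20 groups that were not picked beforehand, and 76 groups were examined. Untrained 16 was picked with its high levels known, so that rate is no measure for its 15 genes. In Irf9, Trained 12 lay below the other Trained libraries with a share of 0.748, above the value of 0.625 for 6 samples, and 3.88% of all genes had such a lowest Trained library. The Untrained libraries left without Untrained 16 were looked at on top of the 76 groups. Among them Untrained 10 was highest with a share of 0.917 for Ddx58 and 0.897 for Oasl2. Untrained 6 was highest for Irf9, with a share of 0.844.

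For Ifih1 and Ifit2 no Trained library lay among the Untrained ones of its sex, and the direction was opposite, as in 0.315% of all genes. Ifih1, the RNA sensor MDA5, was higher in Trained than in Untrained females and lower in Trained than in Untrained males, with an interaction of 0.976 on the log2 scale (limma unadjusted p = 0.0043, adjusted p = 0.959). For Ifit2, which binds RNA like its relative Ifit1, the interaction was 0.735 (limma unadjusted p = 0.0011, adjusted p = 0.959). Both fits hold Untrained 16, an untrained male picked with its high levels known, so these values are a description. Without Untrained 16 the unadjusted p was 0.028 for Ifih1 and 0.0071 for Ifit2, with Untrained 10 the only untrained male.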

How the results depend on the processing

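Over the 11 libraries the count of the 38 genes past the thresholds of the study (1, lower) was 0 with a pseudocount of 1. Over all genes, 0 were then lower and 12 higher. The count was also 0 without Untrained 10 and 16 (11 lower and 24 higher over all genes) and without Untrained 16 and 17 (19 and 28). A filter at a mean of 1 FPKM left 27 of the 38 genes to test, and Samd9l, Usp18 and Trim30d were not among them. None of the 27 passed (6 lower and 15 higher over all genes tested). With each single library left out the count was 1, with 11 to 35 lower and 16 to 35 higher over all genes. The count at an unadjusted p under 0.05 (5, all lower) was 3 with a pseudocount of 1 and 2 with a filter at a mean of 1 FPKM. It was 2 without Untrained 10 and 16 and 1 without Untrained 16 and 17. All of these were lower too. Over all genes the same settings gave 363 to 636 lower and 425 to 616 higher. The count in the 38 genes ran from 1 to 9 with each library left out (1 without Trained 12 or 13, 2 without Trained 2 or 14, 3 without Trained 3, Untrained 16 or Untrained 17, and 9 without Untrained 5). All were lower except 1 gene without Trained 14 and 2 genes without Untrained 16. Over all genes the lower ones ran from 404 (without Untrained 17) to 1236 (without Trained 14), and the higher ones from 419 to 1118. Without Untrained 16, the count past the thresholds (1, lower) was 0 with a pseudocount of 1 (0 lower and 10 higher over all genes) or array weights (16 and 25). It was 0 of the 27 genes left by a filter at a mean of 1 FPKM, again without Samd9l (5 and 13 over all genes tested). With a further library left out it was 0 to 1, with 11 to 27 lower and 14 to 44 higher over all genes. The count at an unadjusted p under 0.05 (3, with 1 lower and 2 higher) was 1, a higher one, with a filter at a mean of 1 FPKM. It was 5, with 3 lower and 2 higher, with the number range as a covariate. With array weights the count stayed at 3 but all were lower (614 lower and 654 higher over all genes). It was 1 to 5 with a further library left out (5, with 3 lower and 2 higher, without Trained 1, and 1, lower, without Trained 12 or Untrained 17). With a further library left out, all genes gave 331 to 920 lower and 372 to 874 higher. Samd9l was at -0.39 over the 11 libraries and -0.31 without Untrained 16 with a pseudocount of 1, where it passed neither time. The median difference ran from -0.31 to -0.02 over the 11 libraries and from -0.09 to 0.02 without Untrained 16 with each library left out. Against the highest of the other 10 libraries in place of their median, the median ratio of Untrained 16 was 1.38. Of the differences of single genes, 860 of 863 and 743 of 749 alternatives kept their side of the threshold. Only Samd9l was past the thresholds in the main fits, so most of these began on the uncalled side and their agreement says little. The difference changed sign in at least 1 alternative in 19 of the 38 genes over the 11 libraries, and in 16 without Untrained 16. The causes were not tested. No paired analysis was possible because the Trained and Untrained libraries share no replicate number. Depth limits genes that rest on few fragments, which a level in FPKM alone does not show. Outside Untrained 16, Isg15 rested on about 8 to 26 fragments and Ddx58 on about 92 to 200.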

Other observations

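Class II antigen presentation genes, which present peptides to helper T cells, were listed apart from the 38 genes. The 7 genes had a median ratio of Untrained 16 to the other 10 libraries of 1.44, and 2 of them were highest in Untrained 16. They summed to 17.8 FPKM in Untrained 16, against 11.3 to 16.6 FPKM in the Trained and 12.5 to 19.95 FPKM in the other Untrained libraries. The 14 other class I genes had a median ratio of 1.03, with H2-T24 at 1.93, H2-Q4 at 1.39 and Erap1, which trims peptides for class I, at 1.31. The 10 constitutive proteasome subunits had a median of 0.875 and none was highest in Untrained 16.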
